A study of Homo sapiens with 6 samples.

Results

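The RB pathway was described through 10 genes chosen by symbol: the pocket protein genes RB1, RBL1 and RBL2, the kinase genes CDK4 and CDK6, the cyclin gene CCND1, and the CDK inhibitor genes CDKN2A, CDKN2B, CDKN1B and CDKN1C. These 10 symbols occupied 11 of the 57905 rows of the gene table, since RBL1 was listed under a pair of identifiers, and 10 of the 11 rows passed the filter on low counts. RNA-seq covered HK-2, a human proximal tubular cell line that was immortalized with the E6 and E7 genes of a papillomavirus. In 3 control libraries the cells had received a non-targeting siRNA pool (ON-TARGETplus), and in 3 further libraries they had received the ON-TARGETplus pool for INO80, the ATPase of a chromatin remodelling complex. Both groups were wild type, received the same transfection reagent and were harvested after 48 h, so the reagent and the viral genes were common to both. The cells are 1 line, and neither the labels nor the methods say that the libraries of a group came from separate cultures. The p-values therefore measure the spread between these libraries, which may be technical. The fits across all genes estimate a gene's spread partly from other genes.

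In G1 phase, D-type cyclins bind CDK4 or CDK6, and these kinases phosphorylate the pocket proteins, which then release E2F transcription factors and allow genes of DNA replication to be transcribed. INK4 proteins such as the products of CDKN2A and CDKN2B bind CDK4 and CDK6 directly, and Cip/Kip proteins such as the products of CDKN1B and CDKN1C bind cyclin-CDK complexes. The E7 protein binds and inactivates pocket proteins, and cells that carry it are known for high levels of the INK4A product of CDKN2A, which limits the line as a model of this pathway. Transcripts of the viral genes were not analysed here.

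Between 16829273 and 20311588 reads were counted on genes in the control siRNA libraries and between 20678008 and 23784599 in the INO80 siRNA libraries. INO80 itself had 46.3, 49.3 and 54.0 CPM (counts relative to the reads of the tested genes, scaled by TMM) in control replicates 1, 2 and 3 and 13.8, 12.0 and 14.2 CPM in the INO80 siRNA replicates. The fold was 0.267, and the log2 fold change was -1.90 with an adjusted p of 0.000161 (edgeR), lower in each of the 3 libraries, which accords with the labels. Of 12 proximal tubule and renal epithelium markers, 3 (GGT1, MME and PAX8) had at least 1 FPKM in every library, while LRP2, SLC22A6 and HNF4A, which define mature proximal tubule, had at most 3 counts in any library. The summed FPKM of these markers was between 78.8 and 83.4 under control siRNA and between 78.7 and 83.4 under INO80 siRNA. Of 5 epithelial markers, KRT8, KRT18, KRT19 and EPCAM had at least 1 FPKM in every library and CDH1 at most 10 counts, and their summed FPKM was between 378 and 414 under control siRNA and between 338 and 414 under INO80 siRNA. EPCAM had between 41.8 and 48.7 FPKM in the controls and between 31.9 and 40.3 FPKM after knockdown, without overlap. Of all tested genes, 22.8% had no overlap between groups in CPM. The log2 fold change of EPCAM was -0.31 with an adjusted p of 0.114 (edgeR). With the replicate block described below, EPCAM (adjusted p 3.71e-06), KRT19 (0.000232) and PAX8 (0.0254) were lower and KRT18 (0.00102) was higher (edgeR). That fit called 24.8% of all tested genes, and the marker values with the block are given for edgeR alone. The part of these markers in the results was not tested. None of 8 markers of immune, endothelial, podocyte, thick limb or collecting duct cells reached 1 FPKM in every library, and their summed FPKM was between 0.240 and 0.430 under control siRNA and between 0.220 and 0.280 under INO80 siRNA. In bulk RNA, fewer cells of a type and less RNA per cell cannot be told apart.

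Promoter sequences from RefSeq (GRCh38.p14), the 250 bases before the transcription start, matched 8 of the 10 members by symbol with 11 entries. CCND1 and CDKN1C had no entry, so their promoters were not searched. They were searched on both strands for an E2F motif (TTTNNCGC), a cell cycle homology region motif (TTTGAA) and an E-box (CACGTG), which do not overlap each other in the windows printed here. Among 35116 windows of the same length from 27305 genes, 5.92% held the E2F motif, 13.3% the cell cycle homology region motif and 6.34% the E-box. Of the 11 entries, those of RBL1 and CDK4 were the only ones with a match, and they are shown with the matches in capitals. The single RB1 entry lay inside the gene, 172699 bases past the RefSeq gene start, so the window before the first exon of RB1 was not searched. The windows of CDKN2B and CDK6 (the first of its RefSeq starts) are shown because these genes passed the test with the replicate block described below. All 4 are on the minus strand and are printed in the direction of transcription.
RBL1, chr20:37095998-37096247: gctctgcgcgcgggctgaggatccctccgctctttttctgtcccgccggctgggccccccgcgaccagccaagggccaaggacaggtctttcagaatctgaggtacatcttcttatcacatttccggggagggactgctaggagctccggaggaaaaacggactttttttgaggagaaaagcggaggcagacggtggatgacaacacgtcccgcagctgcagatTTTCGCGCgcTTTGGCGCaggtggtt
CDK4, chr12:57752311-57752560: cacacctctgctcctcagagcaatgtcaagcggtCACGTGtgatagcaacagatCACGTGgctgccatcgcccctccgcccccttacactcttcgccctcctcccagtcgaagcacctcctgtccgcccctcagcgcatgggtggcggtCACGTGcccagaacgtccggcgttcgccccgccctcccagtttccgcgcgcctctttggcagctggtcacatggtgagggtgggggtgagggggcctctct
CDKN2B, chr9:22009306-22009555: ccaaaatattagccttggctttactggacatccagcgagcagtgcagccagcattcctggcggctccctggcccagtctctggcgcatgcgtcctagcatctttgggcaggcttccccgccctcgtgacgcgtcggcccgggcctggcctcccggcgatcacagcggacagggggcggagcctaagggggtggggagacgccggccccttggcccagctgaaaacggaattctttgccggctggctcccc
CDK6, chr7:92836574-92836823: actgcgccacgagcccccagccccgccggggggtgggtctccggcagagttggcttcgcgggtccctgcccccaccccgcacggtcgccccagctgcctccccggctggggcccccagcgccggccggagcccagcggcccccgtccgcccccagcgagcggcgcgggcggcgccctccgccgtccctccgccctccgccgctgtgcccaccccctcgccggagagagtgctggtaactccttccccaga
The RBL1 window held 2 E2F matches, starting 26 and 16 bases before the start. The CDK4 window held 3 E-box matches, starting 216, 196 and 101 bases before the start. A match is a description of the letters, not evidence that a factor binds there.

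The levels of the members under control siRNA were compared per length, as FPKM, the unit that the authors deposited beside the counts. CDK4 stood highest at 55.3 ± 6.12 FPKM (SD, n = 3), followed by CDKN2A at 47.2 ± 1.70 FPKM and CDK6 at 45.3 ± 4.77 FPKM. CCND1 had 31.5 ± 14.1 FPKM and CDKN1C 29.9 ± 14.6 FPKM, which were the widest spreads among the members. RB1 had 16.9 ± 0.405 FPKM and CDKN1B 16.6 ± 0.796 FPKM. The lowest levels were those of RBL1 at 10.5 ± 0.413 FPKM, CDKN2B at 9.69 ± 2.14 FPKM and RBL2 at 8.35 ± 0.216 FPKM. Neighbours in this order overlapped in their 3 libraries, except that every CDKN1B value lay above every RBL1 value. CDKN2A was above 94.1% of the tested genes by control FPKM, CDK4 above 95.1% and RBL2, the lowest member, above 65.1%. The lowest count of any of the 10 tested rows was 643, for CDKN2B.

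The question of the comparison was which genes of the pathway changed when INO80 was reduced. In the test with the treatment alone (edgeR's quasi-likelihood test, adjusted over the 15343 tested genes), 0 of the 10 members had an adjusted p under 0.05, and 0 had an unadjusted p under 0.05. Across all tested genes 1.75% were called, 0.261% as higher and 1.49% as lower under INO80 siRNA, so a count of 0 among 10 is near this background. DESeq2 called 0 members with 1 at an unadjusted p under 0.05, and limma called 0 with 0 at an unadjusted p under 0.05. The 3 values of one group lay all above or all below those of the other for 0 of 10 members, against 22.8% of tested genes, and this count was 0 under all 3 scalings tried (TMM, total count and RLE).

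**Figure D1:**
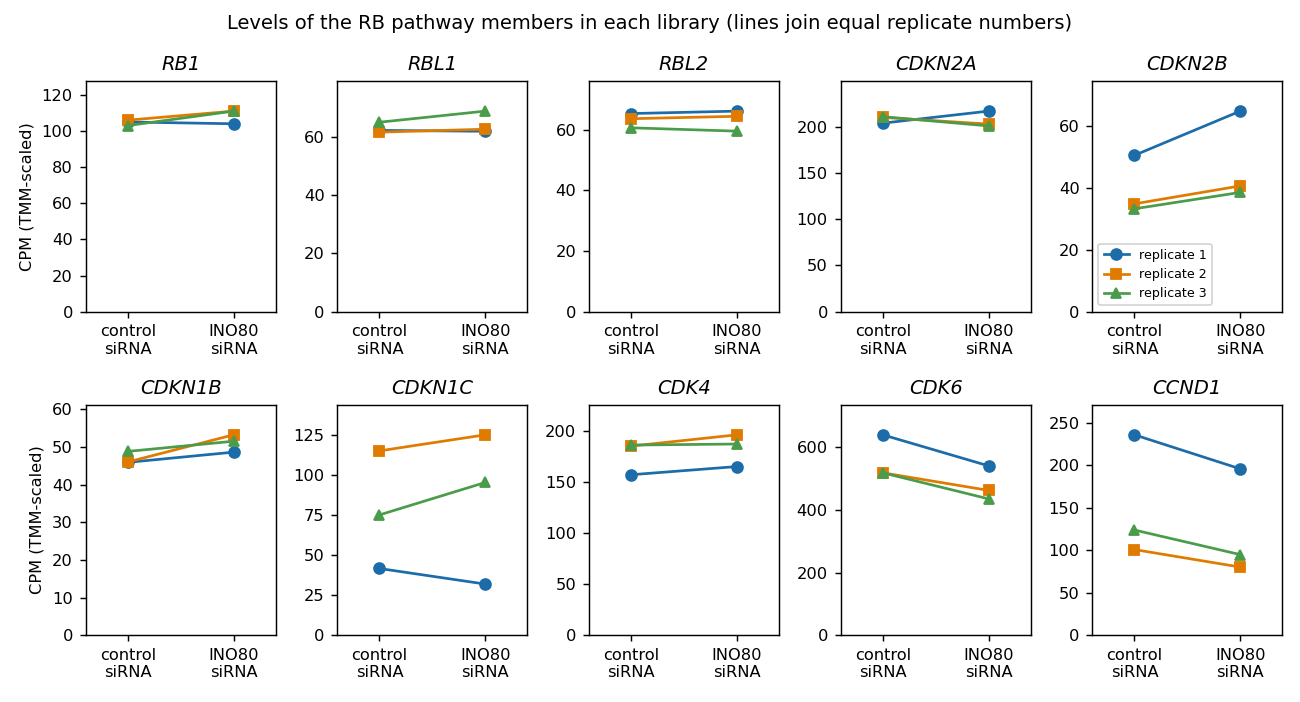
TMM-scaled CPM (vertical axes, from 0) of each member in the 3 control siRNA and 3 INO80 siRNA libraries, with a line joining libraries of equal replicate number. The groups overlap for every member, while the CDKN2B lines all rise, from 50.6 to 64.9 CPM in replicate 1, and the CDK6 and CCND1 lines all fall. The CDKN1B lines also all rise, by log2 ratios of 0.08, 0.21 and 0.08, as do those of CDK4, by 0.08, 0.08 and 0.00. How many of all tested genes moved in the same direction in every pair was not counted.

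The replicate numbers were informative. Libraries with the same number deviated together from their group means, with a correlation across genes of 0.581, 0.365 and 0.36 for replicates 1, 2 and 3, and the highest between different numbers was 0.152. A second model that takes the number as a block is therefore given beside each result whose call it changes. With the block, 3 of the 10 members had an adjusted p under 0.05 (edgeR), CDKN2B as higher and CDK6 and CCND1 as lower under INO80 siRNA, and 4 had an unadjusted p under 0.05. The background with the block was 24.8% of tested genes, 11.4% higher and 13.4% lower, so 3 of 10 is near the background share and is not a result about the pathway as a whole. The same 3 members, and no others, were called with the block by DESeq2, where 13.9% of tested genes were called, and by limma on log2(FPKM + 0.1), where 5.89% were called.

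The pocket protein genes encode RB and its relatives p107 (RBL1) and p130 (RBL2), which hold E2F factors in a repressed state. RB1 (chr13:48877887-49056122, plus strand, in the GRCh37 coordinates of the table, used for all genes here and below) had 105, 106 and 103 CPM under control siRNA and 104, 111 and 111 CPM under INO80 siRNA. INO80 siRNA replicate 1 lay within the control range and replicates 2 and 3 above it, and the log2 fold change was 0.05 with a 95% interval from -0.07 to 0.18 and an adjusted p of 0.694 (edgeR). RBL1 (chr20:35624752-35724398, minus strand) had 62.1, 61.5 and 64.9 CPM in the controls and 61.8, 62.5 and 68.7 CPM after knockdown. Replicate 3 was the highest in both groups, and the log2 fold change was 0.03 (interval -0.12 to 0.18). The second row named RBL1, on the opposite strand at chr20:35724188-35725581, held between 2 and 6 counts per library and was not tested. RBL2 (chr16:53467889-53525561, plus strand) had 65.3, 63.6 and 60.6 CPM in the controls and 66.1, 64.4 and 59.5 CPM after knockdown. Its replicates kept the same order in both groups, and the log2 fold change was 0.00 (interval -0.15 to 0.15). The intervals of all 3 genes therefore left out a change of more than 0.18 on the log2 scale in either direction, and the replicate block called none of them (adjusted p 0.383, 0.663 and 0.973, edgeR).

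As shares of the summed FPKM of the pocket protein genes, RB1 took 47.3% ± 0.523 (SD, n = 3) under control siRNA and 47.8% ± 0.849 under INO80 siRNA, RBL1 29.4% ± 1.02 and 29.3% ± 1.36, and RBL2 23.3% ± 0.731 and 22.9% ± 1.61. A share within a library does not depend on the scaling between libraries. The difference for RB1 was 0.546 percentage points (exact two-sided permutation test, p = 0.4, where the smallest p that 3 against 3 libraries can give is 0.1). Over the 6 shares tested in the families, every Benjamini-Hochberg adjusted p was 0.9, and it was 0.75 in each case when libraries were paired by replicate number.

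CDK4 and CDK6 encode the catalytic partners of the D-type cyclins. CDK4 (chr12:58141510-58149796, minus strand) had 157, 185 and 186 CPM in the controls and 165, 196 and 187 CPM after knockdown. Replicate 1 was the lowest in both groups, and the log2 fold change was 0.05 (interval -0.15 to 0.26, adjusted p 0.82 in edgeR, and 0.314 with the block). CDK6 (chr7:92234235-92465908, minus strand) had 639, 518 and 518 CPM in the controls and 540.2, 462 and 435 CPM after knockdown. The INO80 siRNA library of replicate 1 lay above control replicates 2 and 3, so the groups overlapped, although each INO80 siRNA library lay below the control library of its own number, with ratios of -0.24, -0.16 and -0.25 on the log2 scale. With the treatment alone the log2 fold change was -0.22 ± 0.107 (SE) with an adjusted p of 0.359 (edgeR), and it was -0.11 without control replicate 1 and -0.31 without INO80 siRNA replicate 1. With the replicate block it was -0.22 ± 0.0326 (SE), a fold of 0.859 with an interval from -0.29 to -0.15 on the log2 scale and an adjusted p of 1.48e-05 (edgeR). The adjusted p with the block was 1.69e-06 in DESeq2 and 0.038 in limma.

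The share of CDK6 in the summed FPKM of CDK4 and CDK6 was 51.3%, 42.0% and 41.9% in control replicates 1, 2 and 3 and 45.8%, 37.9% and 37.6% in the INO80 siRNA replicates. The pair differences were -5.50, -4.13 and -4.23 percentage points, all of the same sign, while the groups overlapped. The mean difference of -4.62 points gave p = 0.3 in the exact two-sided permutation test over groups and p = 0.25 in the exact paired permutation test, the smallest p that 3 pairs can give. Leaving out 1 library moved the difference to between -7.29 (without INO80 siRNA replicate 1) and -1.51 (without control replicate 1).

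CCND1 encodes cyclin D1, the regulatory partner of CDK4 and CDK6 that responds to growth factor signals. CCND1 (chr11:69455855-69469242, plus strand) had 236, 101 and 124 CPM in the controls and 196, 80.4 and 95.1 CPM after knockdown. Replicate 1 stood apart in both groups, at 2.09 times the mean of replicates 2 and 3 under control siRNA and 2.23 times under INO80 siRNA, and the order 1, 3, 2 was the same in both. Within pairs, the log2 ratios of INO80 siRNA over control were -0.27, -0.33 and -0.39. With the treatment alone the log2 fold change was -0.31 ± 0.383 (SE) with an adjusted p of 0.745 (edgeR), and without control replicate 1 it was 0.13, against -0.81 without INO80 siRNA replicate 1. With the replicate block the log2 fold change was -0.33 ± 0.0398 (SE), a fold of 0.797 with an interval from -0.41 to -0.24 on the log2 scale and an adjusted p of 7.93e-07 (edgeR). The adjusted p with the block was 5.61e-07 in DESeq2 and 0.0217 in limma. Without either library of replicate 1, the blocked log2 fold change was -0.37 for CCND1 and -0.21 for CDK6, and both were still called, as were 25.4% of tested genes. In that fit of 4 libraries a gene's own spread can hardly be estimated, and the spread used is drawn from other genes.

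The other D-type cyclins, CCND2 and CCND3, were read beside CCND1 as genes of the same complex. CCND1 took 60.7%, 35.8% and 44.8% of the summed D-type cyclin FPKM in the controls and 58.1%, 30.6% and 39.2% after knockdown. CCND3 took 22.0%, 44.7% and 39.9% in the controls and 26.9%, 52.1% and 47.6% after knockdown. CCND1 was thus the most abundant D-type cyclin in replicate 1 of both groups and CCND3 in replicate 2 of both groups, and in replicate 3 CCND1 was ahead under control siRNA and CCND3 under INO80 siRNA. The summed FPKM was 78.3, 58.9 and 57.8 in the controls and 67.9, 55.2 and 51.1 after knockdown, lower in each pair and overlapping between groups.

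**Figure D2:**
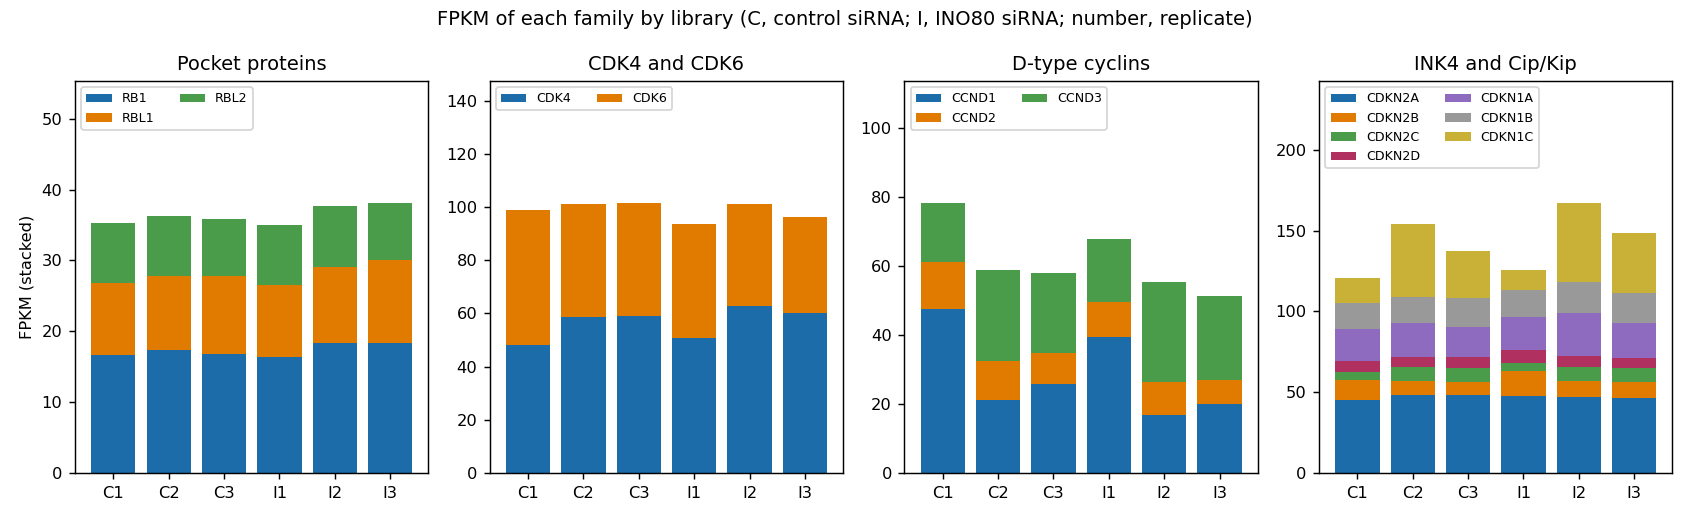
Stacked FPKM (vertical axes, from 0) of the pocket protein genes, the kinase genes, the D-type cyclin genes and the INK4 and Cip/Kip inhibitor genes in each of the 6 libraries. The pocket protein bars have nearly the same composition in all libraries, while the CCND1 part of the cyclin bars is largest in replicate 1 of both groups, at 47.5 and 39.4 FPKM.

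CDKN2A encodes the CDK4 and CDK6 inhibitor INK4A and, from another first exon, the ARF protein, and the table counts both transcripts as 1 gene. CDKN2A (chr9:21967751-21995300, minus strand) had 204, 210.2 and 211 CPM in the controls and 217, 203 and 201 CPM after knockdown. The pairs went in different directions, with log2 ratios of 0.08, -0.05 and -0.07, and the log2 fold change was -0.01 (interval -0.14 to 0.11, adjusted p 0.945 in edgeR). CDKN2B (chr9:22002902-22009362, minus strand), the neighbouring gene, which encodes INK4B, had 50.6, 34.9 and 33.3 CPM in the controls and 64.9, 40.7 and 38.6 CPM after knockdown. Replicate 1 was again the highest in both groups, at 1.48 and 1.64 times the mean of replicates 2 and 3, and each pair was higher after knockdown, by log2 ratios of 0.36, 0.22 and 0.21. With the treatment alone the log2 fold change was 0.28 ± 0.223 (SE) with an adjusted p of 0.598 (edgeR), and it was 0.49 without control replicate 1 and 0.005 without INO80 siRNA replicate 1. With the replicate block it was 0.27 ± 0.0559 (SE), a fold of 1.20 with an interval from 0.15 to 0.38 on the log2 scale and an adjusted p of 0.000797 (edgeR), against 0.0281 in DESeq2 and 0.0439 in limma with the block. Without either library of replicate 1 the blocked log2 fold change was 0.21 with an adjusted p of 0.0074 (edgeR).

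The share of CDKN2A in the summed FPKM of CDKN2A and CDKN2B was 78.8%, 84.7% and 85.4% in the controls and 75.5%, 82.1% and 82.8% after knockdown. The pair differences were -3.34, -2.59 and -2.64 percentage points, and their mean of -2.85 gave p = 0.5 over groups and p = 0.25 in the paired test (exact two-sided permutation tests). Without INO80 siRNA replicate 1 the difference was -0.531 points, and without control replicate 1 it was -4.93. With CDKN2C and CDKN2D included, the summed INK4 FPKM was 69.6, 72.0 and 72.0 in the controls and 76.1, 72.4 and 70.9 after knockdown, and CDKN2A made up between 62.9% and 67.0% of it in every library.

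CDKN1B encodes KIP1, which binds cyclin E and cyclin A complexes with CDK2 and also binds complexes of the D-type cyclins. CDKN1B (chr12:12867992-12875305, plus strand) had 45.9, 46.0 and 48.8 CPM in the controls and 48.6, 53.2 and 51.5 CPM after knockdown. Only INO80 siRNA replicate 1 lay within the control range, below control replicate 3. The log2 fold change was 0.12 (interval -0.03 to 0.27, adjusted p 0.402 in edgeR), and with the block it was 0.13 with an adjusted p of 0.0886. CDKN1C (chr11:2904443-2907111, minus strand), which encodes KIP2, an imprinted inhibitor of the same family, had 41.7, 115 and 75.1 CPM in the controls and 32.0, 125 and 95.3 CPM after knockdown. Its replicates held the order 2, 3, 1 in both groups, and the highest value was 2.77 times the lowest in the controls and 3.92 times after knockdown. The pairs disagreed in direction, with log2 ratios of -0.38, 0.12 and 0.34. The log2 fold change was 0.12 with an interval from -0.96 to 1.21 and an adjusted p of 0.933 (edgeR), an interval that reaches past any change seen in a pair, in both directions. Without either library of replicate 1, CDKN1C was called with the block at a log2 fold change of 0.22 ± 0.0421 (SE, adjusted p 4.54e-06, edgeR). The remaining pairs stood further apart than this SE, at 0.12 and 0.34, so this p does not measure the gene's own spread. The fit of all 3 pairs gave 0.09 with an adjusted p of 0.414 (edgeR). The SE of that blocked fit was 0.0704 in edgeR, against 0.21 in DESeq2 and 0.144 in limma. Its edgeR interval from -0.06 to 0.23 left out the ratios of replicates 1 and 3.

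The share of CDKN1B in the summed FPKM of CDKN1B and CDKN1C ranged more within groups than between them, at 50.3%, 26.8% and 37.4% in the controls and 58.3%, 28.0% and 33.2% after knockdown (exact two-sided permutation test, p = 0.9). The pair differences were 8.02, 1.22 and -4.19 percentage points, and the mean difference of 1.68 became -7.54 without INO80 siRNA replicate 1 and 7.74 without control replicate 1, and it was also negative without control replicate 2, at -3.99.

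**Figure D3:**
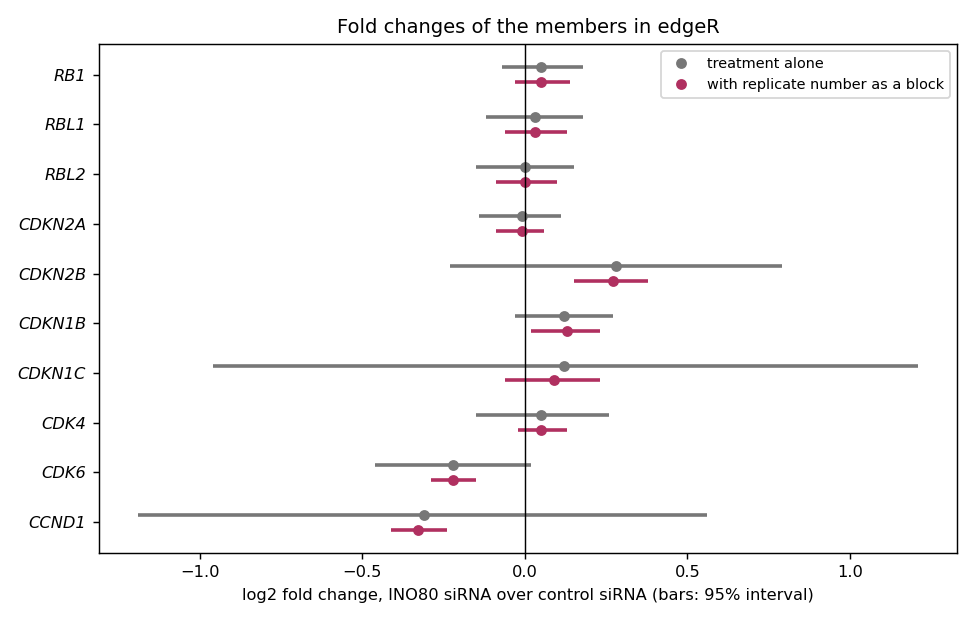
Log2 fold changes of the 10 members, INO80 siRNA over control siRNA (horizontal axis), with 95% intervals as bars, from edgeR with the treatment alone in grey and with the replicate block in red. The interval of CCND1 narrows from between -1.19 and 0.56 to between -0.41 and -0.24 with the block, and those of RB1, RBL1, RBL2 and CDKN2A include 0 in both fits.

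The members differed widely in their spread between replicates. Under control siRNA the coefficient of variation of CPM was 1.51% for RB1, 1.77% for CDKN2A, 2.86% for RBL1, 3.50% for CDKN1B and 3.77% for RBL2. It was 9.34% for CDK4, 12.5% for CDK6, 24.2% for CDKN2B, 46.7% for CCND1 and 47.7% for CDKN1C. CCND1 and CDKN1C varied more than 95.6% and 95.8% of the tested genes, whereas RB1 varied more than 3.0% of them. Replicate 1 was the highest for CCND1 and the lowest for CDKN1C in both groups. Its CPM was 0.438 times the mean of replicates 2 and 3 for CDKN1C under control siRNA and 0.290 times under INO80 siRNA, and the same ratios were 1.23 and 1.20 for CDK6, 0.847 and 0.865 for CDK4 and 0.999 and 0.941 for RB1. What set replicate 1 apart was not tested.

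**Figure D4:**
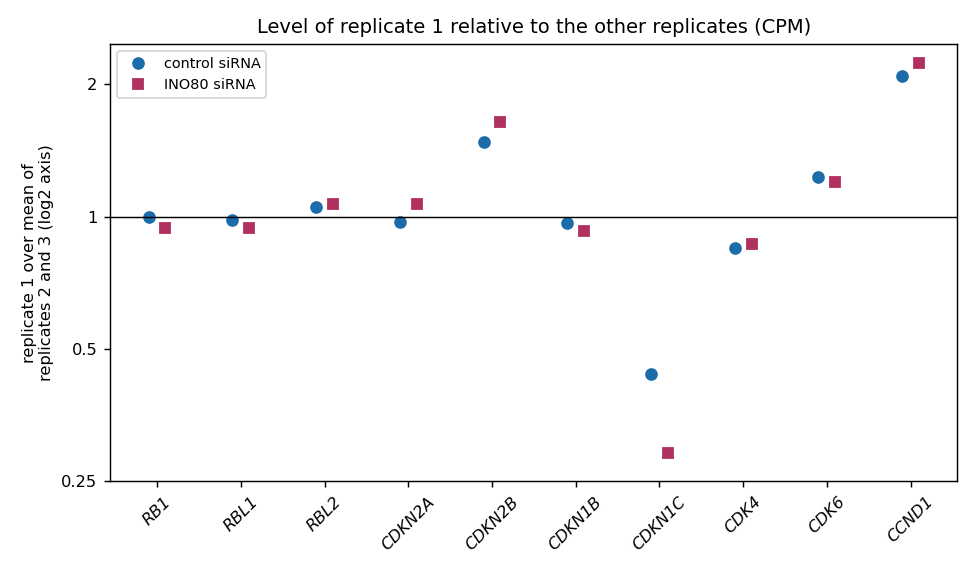
CPM of replicate 1 divided by the mean of replicates 2 and 3 (vertical axis, log2 scale), for each member in the control siRNA and INO80 siRNA groups. Both points lie above 2 for CCND1 (2.09 and 2.23) and below 0.5 for CDKN1C (0.438 and 0.290), and near 1 for the pocket protein genes.

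Other genes on the members' spans were read as well, because the library kit was directional but the strand setting of the counting is not given in the sources used here, so reads of overlapping genes on opposite strands may not be told apart. AKTIP, which overlaps RBL2 on the opposite strand, had 182, 210 and 188 raw counts in the controls and 287, 271 and 271 counts after knockdown. Its mean was 17.9% of the RBL2 mean, and its log2 fold change was 0.24 with an adjusted p of 0.431 (edgeR). ORAOV1, opposite CCND1, had a mean of 11.0% of the CCND1 count and a log2 fold change of 0.00. TSPAN31 and MARCHF9 (listed as a calendar date in the symbol column and named here by its gene identifier), both opposite CDK4, had means of 7.75% and 3.24% of the CDK4 count. CDKN2B-AS1, the antisense RNA of the INK4 locus, had between 14 and 24 counts per library, 1.94% of the CDKN2B mean and 0.406% of the CDKN2A mean, and a log2 fold change of -0.00. AC002454.1, opposite CDK6, had a mean of 0.132% of the CDK6 count. None of these genes was called in either fit.

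The rest of the pathway was read from 6 lists with 63 genes, all of which were tested. With the treatment alone 0 of the 63 were called (edgeR), and 13 (20.6%) had an unadjusted p under 0.05, against 16.4% of tested genes. DESeq2 called 3 (4.76%, against 4.58% of tested genes) and limma 0. With the replicate block 25 were called, 10 higher and 15 lower, which is 39.7% beside the background of 24.8%. The background shares were taken over all tested genes and were not matched to the list genes by expression level, so the shares are not directly comparable. This count depended on the tool, since DESeq2 with the block called 10 (15.9%, against 13.9% of tested genes) and limma 8 (12.7%, against 5.89%). The 8 called in all 3 blocked fits were CCND2, CCNE2, E2F1, TFDP1, TYMS, MCM3, MCM5 and HELLS, and any other gene said below to have risen or fallen was called in edgeR but not in all of the 3. The genes with the smallest p in each list were CCNE2, CDKN1A, E2F1, DYRK1A, FBXO4 and HELLS, and the other list genes named here, called or not, were chosen after their values were seen.

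Among 9 G1 cyclins, kinases and the CDC25A phosphatase, 2 rose and 2 fell with the block. CCNE2, a cyclin E gene whose product activates CDK2, had 23.5, 23.9 and 20.5 CPM in the controls and 28.7, 31.2 and 30.4 CPM after knockdown. The groups did not overlap, as was so for 22.8% of tested genes. The log2 fold change of CCNE2 was 0.41, with an adjusted p of 0.0574 with the treatment alone and 6.83e-05 with the block (edgeR). CDK7, the kinase that activates other CDKs, rose by 0.31 with the block, while CCND2 changed by -0.37 and CDK2 by -0.17 on the log2 scale. The median log2 fold change of the list was 0.06, against 0.01 over all tested genes. Of the 3 other CDK inhibitors, CDKN1A, which encodes the Cip/Kip protein CIP1, had 59.9, 61.4 and 55.1 CPM in the controls and 63.4, 77.8 and 63.4 CPM after knockdown. It rose by 0.21 with the block (adjusted p 0.0031 in edgeR, 0.0579 in DESeq2 and 0.107 in limma), and the adjusted p was 0.303 with the treatment alone. CDKN2C and CDKN2D were not called in either fit, and the list's median was 0.03.

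Of 10 E2F and DP genes, 1 rose and 2 fell with the block, and the median log2 fold change was 0.02. E2F1, an activating E2F factor that RB restrains, had 61.4, 66.9 and 67.9 CPM in the controls and 80.9, 82.0 and 78.3 CPM after knockdown. The groups did not overlap, as was so for 22.8% of tested genes and for other list genes such as TFDP1 and HELLS. The log2 fold change of E2F1 was 0.30, with an adjusted p of 0.0566 with the treatment alone and 4.06e-05 with the block (edgeR). TFDP1 and TFDP2, the DNA-binding partners of the E2F factors, changed by -0.18 and -0.19 with the block. E2F4, the factor that works mainly with RBL1 and RBL2, had a log2 fold change of 0.04 and was not called.

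Among 12 genes of the DREAM and MuvB complexes and of RB corepressors, 1 rose and 4 fell with the block, with a list median of -0.02. DYRK1A, the kinase that promotes DREAM assembly, had 39.2, 41.8 and 43.6 CPM in the controls and 46.5, 50.3 and 48.8 CPM after knockdown. Its log2 fold change was 0.22, with an adjusted p of 0.159 alone and 0.00296 with the block (edgeR). The 4 that fell were LIN9, LIN52, RBBP4 and HDAC1, by between -0.34 and -0.11 on the log2 scale. All 5 calls were lost in limma, and all but that of RBBP4 in DESeq2. Of 9 genes of KIP1 and cyclin turnover, FBXW7 and CDC34 rose and FBXO4 fell with the block in edgeR alone. FBXO4, an F-box protein, had 7.07, 8.37 and 8.79 CPM in the controls and 4.18, 6.09 and 6.69 CPM after knockdown, a log2 fold change of -0.52 with the block (adjusted p 0.00359, edgeR). SKP2, the F-box protein that marks KIP1 for degradation, had 48.4, 50.1 and 48.5 CPM in the controls and 37.5, 54.0 and 46.4 CPM after knockdown, and was not called in either fit.

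Of 20 genes known as RB and E2F targets, 3 rose and 6 fell with the block, and the median log2 fold change with the treatment alone was -0.07. The list did not hold MCM2, another gene of the MCM family, which the paper reports among its down-regulated genes, so these counts leave it out. Those that rose were CCNA2, CCNB1 and CDK1, which act in S phase and mitosis, by 0.13, 0.12 and 0.14 on the log2 scale. Those that fell were TYMS, TK1 and RRM1, enzymes of nucleotide synthesis, MCM3 and MCM5, subunits of the replicative helicase, and HELLS, a chromatin remodeller. HELLS had 103, 114 and 91.7 CPM in the controls and 74.7, 90.5 and 72.2 CPM after knockdown, with a log2 fold change of -0.38 and an adjusted p of 0.129 alone and 4.1e-07 with the block (edgeR). The other 5 changed by between -0.19 and -0.11, and the calls of CCNA2, CCNB1, CDK1, TK1 and RRM1 were made in edgeR alone. The lists moved in both directions, and no test compared them with other genes.

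**Figure D5:**
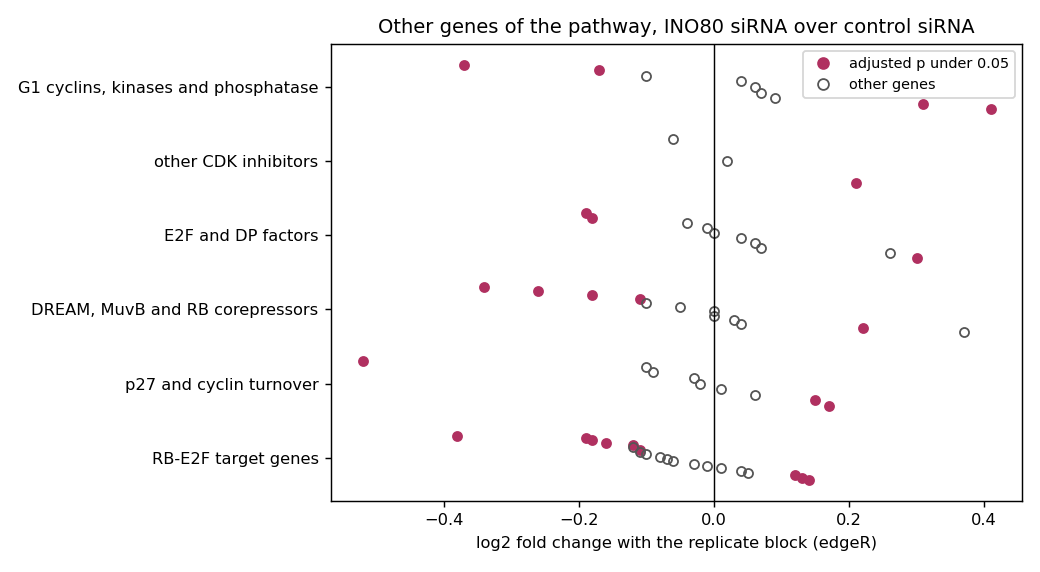
Log2 fold changes with the replicate block (horizontal axis, edgeR) of the 63 further genes of the pathway, grouped by list on the vertical axis, with filled points for an adjusted p under 0.05. Filled points lie on both sides of 0 in 5 of the lists and only above 0 among the other CDK inhibitors, where CDKN1A (0.21) is the single one.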

How the data were processed

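The authors deposited 1 table that gives, per gene and library, an unnormalized count and an FPKM, and the FPKM values equal the count over exonic length and library total. Per the labels, poly-A RNA was sequenced with a directional kit, and the submitters' processing notes name HISAT2 2.0.1, HTSeq and hg19, whereas the paper's methods name ELAND and hg38. The table's coordinates are those of GRCh37. Library totals are given above.

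Counts were filtered with filterByExpr, scaled by TMM over tested genes and tested with edgeR 4.0.16 in R 4.3.3 (quasi-likelihood, treatment alone, Benjamini-Hochberg adjustment, threshold 0.05). Alternatives used a replicate block, DESeq2 1.42.0, limma 3.58.1 on log2(FPKM + pseudocount), other filters and scalings, and each library left out. The fits were tested on simulated data with changes of 1 and 2 on the log2 scale, in which limma recovered fewer of the changed genes than edgeR or DESeq2. Changes as small as those of the members called with the block were not simulated. Only recovery is given here, not calls among unchanged genes. The simulated replicate effect was also smaller than the spread of CCND1 and CDKN1C between replicates. DESeq2 and limma with the block, and pairing in the share test, were chosen after seeing the data. Shares were compared by exact permutation tests in scipy 1.17.1.

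The members and lists were chosen with earlier results of these data known. Named were all members, INO80, overlapping genes with a mean count of at least 10, list genes called with the treatment alone, and otherwise each list's gene with the smallest p. Every other gene named was chosen after its values were seen. The pairing by replicate number comes from correlated deviations across 15343 genes, as given above. Outlying libraries were not tested in groups of 3. A result for 1 further marker gene is not reported here.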

Additional observations from a re-analysis of the deposited data

How the results depend on the processing

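With the treatment alone, no alternative called a member. The replicate block called 3 of 10 in edgeR, DESeq2 and limma, and 4 for libraries 2 and 3 only. Genes called over the whole table numbered 268, and 708 without a filter, 610 in DESeq2, 82 and 60 in limma with pseudocounts of 0.1 and 1, and 528 for libraries 2 and 3 only. With the block they numbered 3798, 1691 in DESeq2, 1159 in limma and 3978 for libraries 2 and 3 only. Leaving out 1 library gave between 18 (without control replicate 3) and 146 (without INO80 siRNA replicate 1). Of the 63 list genes, 4 were called without a filter, 1 with a mean FPKM of at least 1, 3 in DESeq2 and 1 for libraries 2 and 3 only, and with the block 25, 10 in DESeq2, 8 in limma and 25 for libraries 2 and 3 only.

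With the treatment alone, where no member was called, some directions turned. RBL2 had a log2 fold change of -0.0002 with a mean FPKM of at least 1 and -0.007 for libraries 2 and 3 only, with or without the block. Leaving out 1 library gave between -0.016 (without INO80 siRNA replicate 3) and 0.062 for RBL1, and between -0.029 and 0.048 for RBL2, negative without control replicate 3 or INO80 siRNA replicates 1 or 2. It gave between -0.046 and 0.008 for CDKN2A, positive without INO80 siRNA replicates 2 or 3. It gave between -0.28 and 0.53 for CDKN1C, negative without control replicate 1 or INO80 siRNA replicate 2. It gave between -0.022 and 0.12 for CDK4 and between -0.81 and 0.13 for CCND1, each turning without control replicate 1. The cause was not tested. RB1, CDKN2B, CDKN1B and CDK6 kept their direction in all 17 alternatives. The replicate block of all 3 pairs changed no other member's call than those of CCND1, CDK6 and CDKN2B. The exact permutation tests of shares could not fall below p = 0.1, or 0.25 when paired. Leaving out 1 library gave share differences between 0.169 and 1.01 points for RB1, -0.833 and 0.526 for RBL1, and -1.22 and 0.370 for RBL2. DESeq2 and limma with the block and the paired share tests were chosen after seeing the data.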
